A study of Mus musculus and Rattus norvegicus with 53 samples.

Results

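The small leucine-rich proteoglycans are a family of secreted matrix proteins, and 9 of their genes were followed here in Schwann cells (SCs) sorted from mouse sciatic nerve: Dcn, Bgn and Aspn of class I, Lum, Fmod, Prelp and Omd of class II, Ogn of class III and Podn of class V. The members were taken by gene symbol, with earlier results of these data known, and are 9 of the 24016 genes listed in the count files. All mice were tdTomSC reporter animals, in which a Cre transgene active in the neural crest lineage switches on tdTomato from the Rosa26 locus, so the intact nerves carry both alleles too. A sciatic nerve was cut at 6 to 8 weeks of age in male and female mice, and tdTomato+ cells were sorted from the uninjured nerve of the other side (iSCs), from the stump distal to the cut (dSCs) and from the bridge of new tissue between the stumps (bSCs). In the first experiment the nerves of 3 mice were pooled in each library and collected at day 6, with 4 libraries each of iSCs, dSCs and bSCs. The bridges of a pool were digested together and the intact and distal nerves separately. In the second experiment each library held 1 nerve, with 5 libraries of iSCs. Distal stumps of this experiment were taken on days 1 and 2 and then every 2 days up to day 10, bridges every 2 days from day 4 to day 10, with 3 libraries for each region and day.

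These proteins share a core of leucine-rich repeats, by which most of them bind collagen and limit how thick its fibrils grow. Many carry chains of chondroitin, dermatan or keratan sulfate, and several bind growth factors, TGFβ among them, and so hold these in the matrix. In peripheral nerve they are known as products of the endoneurial and perineurial connective tissue, where fibroblasts are a main source.

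Libraries held between 9240883 and 22617054 counts on genes, over both experiments. The defining SC markers Sox10 and S100b had counts in all 47 libraries, but so did the fibroblast markers Pdgfra, Dpt and Pi16, with Clec3b at 0 in 1 of the 35 single-nerve libraries. Macrophage, endothelial, mural and perineurial markers were also detected, although Msln, a mesothelial and perineurial gene, was at 0 in 3 of the 12 pooled libraries and in 5 of the 35 others. In the iSCs of single nerves Sox10 lay between 22.8 and 119 CPM (the normalised count scaled to the size of the library) and the fibroblast marker Pi16 between 66.5 and 1109 CPM, so a gene's level in these libraries is that of the sorted fraction, in which fewer cells of a type and less RNA per cell cannot be told apart. The 4 single-nerve libraries with the fewest genes detected (replicates 0 and 1 of iSCs, replicate 1 of day 1 dSCs and replicate 0 of day 2 dSCs) had 10042 to 11138 genes with a count, against 11983 to 15815 in the other single-nerve libraries, and results that change without them are given below with and without them.

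Decorin, the product of Dcn, carries a single chondroitin or dermatan sulfate chain and is the best known of the family. Per length of transcript Dcn was the highest member in every group, with 6475 ± 4011 RPKM in iSCs of pooled nerves (mean ± SD, n = 4), 6249 ± 1274 in dSCs and 852 ± 475 in bSCs. It took between 0.491% and 2.27% of all gene counts in the iSC libraries of pooled nerves and between 0.0758% and 0.313% in the bSC libraries. Lum came next, with 1240 ± 710 RPKM in iSCs, followed by Ogn with 592 ± 114. The other members lay at 111 ± 86.3 RPKM (Bgn), 82.2 ± 51.7 (Prelp), 59.4 ± 34.8 (Aspn), 39.3 ± 18.8 (Omd), 30.5 ± 22.5 (Podn) and 24.0 ± 16.6 (Fmod), and neighbours in this stretch of the order overlapped within 1 SD. In bSCs the order after Dcn was another: Lum (322 ± 280 RPKM) and Bgn (304 ± 147) were followed by Aspn (176 ± 86.9), with Ogn at 63.5 ± 16.7 and Omd, Prelp, Fmod and Podn at 14.4, 13.99, 11.3 and 1.24 on average.

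Several members lie side by side in the genome. On chromosome 13 of build mm9, Aspn (49639812 to 49662926), Omd (49678135 to 49687978) and Ogn (49703440 to 49719869) follow one another on the plus strand, with gaps of 15208 and 15461 bases. Dcn (96942245 to 96980777) and Lum (97028135 to 97035337) are neighbours on the plus strand of chromosome 10, 47357 bases apart. Prelp (135806881 to 135817991, minus strand) and Fmod (135933831 to 135944854, plus strand) follow each other on chromosome 1, with 115839 bases between them. Bgn lies on chromosome X (70728941 to 70741272) and Podn on chromosome 4 (107687396 to 107704942).

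The sequences upstream of the chromosome 13 neighbours are shown because Aspn and Ogn, with Omd between them, differed in opposite directions between bSCs and iSCs, and that of Bgn because its estimate, like that of Aspn and of no other member, was higher in bSCs than in iSCs. They are the 250 bases before the RefSeq start in GRCm38.p6, all on the plus strand: chr13:49544193-49544442 for Aspn, chr13:49582212-49582461 for Omd, chr13:49607765-49608014 for Ogn and chrX:73483351-73483600 for Bgn. Of the 9 members 7 were matched in the promoter table, without Dcn and Lum. Capitals mark matches to any of 5 motifs on either strand: a TATA box (TATAAA), an AP-1 element (TGANTCA), a SMAD palindrome (GTCTAGAC), a TEAD element (GGAATG) and a GC box (GGGCGG).
Aspn: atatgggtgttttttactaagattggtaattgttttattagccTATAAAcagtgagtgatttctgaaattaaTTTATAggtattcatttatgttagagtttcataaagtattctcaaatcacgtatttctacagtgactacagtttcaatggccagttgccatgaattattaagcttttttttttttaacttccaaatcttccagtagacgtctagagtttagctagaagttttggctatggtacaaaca
Omd: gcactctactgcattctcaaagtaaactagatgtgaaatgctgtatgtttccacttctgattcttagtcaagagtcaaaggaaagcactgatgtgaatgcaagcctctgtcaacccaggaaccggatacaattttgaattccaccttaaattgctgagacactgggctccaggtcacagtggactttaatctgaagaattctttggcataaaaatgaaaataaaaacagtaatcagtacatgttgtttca
Ogn: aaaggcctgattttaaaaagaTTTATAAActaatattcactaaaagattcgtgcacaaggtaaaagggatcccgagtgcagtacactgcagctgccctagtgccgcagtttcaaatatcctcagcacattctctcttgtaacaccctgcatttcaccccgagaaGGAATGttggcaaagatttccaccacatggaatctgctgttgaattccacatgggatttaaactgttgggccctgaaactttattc
Bgn: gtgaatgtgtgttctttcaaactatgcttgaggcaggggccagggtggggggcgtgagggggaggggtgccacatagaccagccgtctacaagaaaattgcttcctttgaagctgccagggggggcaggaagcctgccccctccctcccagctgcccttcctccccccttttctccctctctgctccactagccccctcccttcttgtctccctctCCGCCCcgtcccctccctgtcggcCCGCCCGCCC

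The upstream sequence of Aspn is AT-rich, with 30.0% G and C against a median of 52.4% over all 32851 promoters of that table, and holds a pair of TATA box matches at -207 and -178 from the start. That of Ogn holds TATA box letters on both strands between -229 and -222, which overlap, and 1 TEAD element at -86. Bgn has 64.4% G and C and 3 GC boxes, at -34, -10 and -6, of which those at -10 and -6 overlap. Omd has no match in this window. Among all promoters of the same length, 12.4% hold the TATA box, 12.6% the TEAD element, 32.7% the GC box, 6.75% the AP-1 element and 0.167% the SMAD palindrome.

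Whether SCs of the distal stump differ from those of the intact nerve was compared first. Ogn, which encodes osteoglycin (mimecan), a regulator of collagen fibril assembly, was the member that changed. Its level was 1596, 1327, 1872 and 1224 CPM in iSCs (pools 1, 2, 4 and 5) and 353, 714, 506 and 437 CPM in dSCs (pools 1, 2, 3 and 5). Every dSC library lay below every iSC library. Ogn fell 2.99-fold (log2 fold change -1.58 ± 0.28 SE, adjusted p = 0.00579, edgeR's quasi-likelihood test), 1 of 9 members called where 5.32% of the 13751 genes tested were, 2.69% lower. With the pool number as a block, the change was nearly as large but its adjusted p was 0.0508, and the range over 6 alternatives was 2.1e-06 to 0.0508.

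Biglycan and lumican transcripts stood higher in dSCs without passing the threshold. Biglycan, encoded by Bgn, usually carries a pair of chondroitin or dermatan sulfate chains. Its transcript was at 223, 77.7, 519 and 766 CPM in iSCs and at 936, 1334, 935 and 1048 CPM in dSCs, with no overlap, and the log2 fold change was 1.42 ± 0.55 (adjusted p = 0.186, edgeR). Lum, encoding the keratan sulfate proteoglycan lumican, was at 1773, 1101, 2963 and 4460 CPM in iSCs and at 6170, 8331, 5593 and 5231 CPM in dSCs, again with no overlap (1.30 ± 0.54, adjusted p = 0.226, edgeR). Libraries of both groups did not overlap for 3 of 9 members, Ogn lower and these 2 higher, against 17.0% of all genes tested, 9.41% lower and 7.56% higher. For Dcn the iSC libraries spread from 4747 to 22413 CPM and enclosed the dSC libraries, which lay between 9537 and 15345 CPM (log2 fold change -0.05 ± 0.47). The median log2 fold change of the 9 members was 0.07, beside -0.02 over all genes tested.

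**Figure D1:**
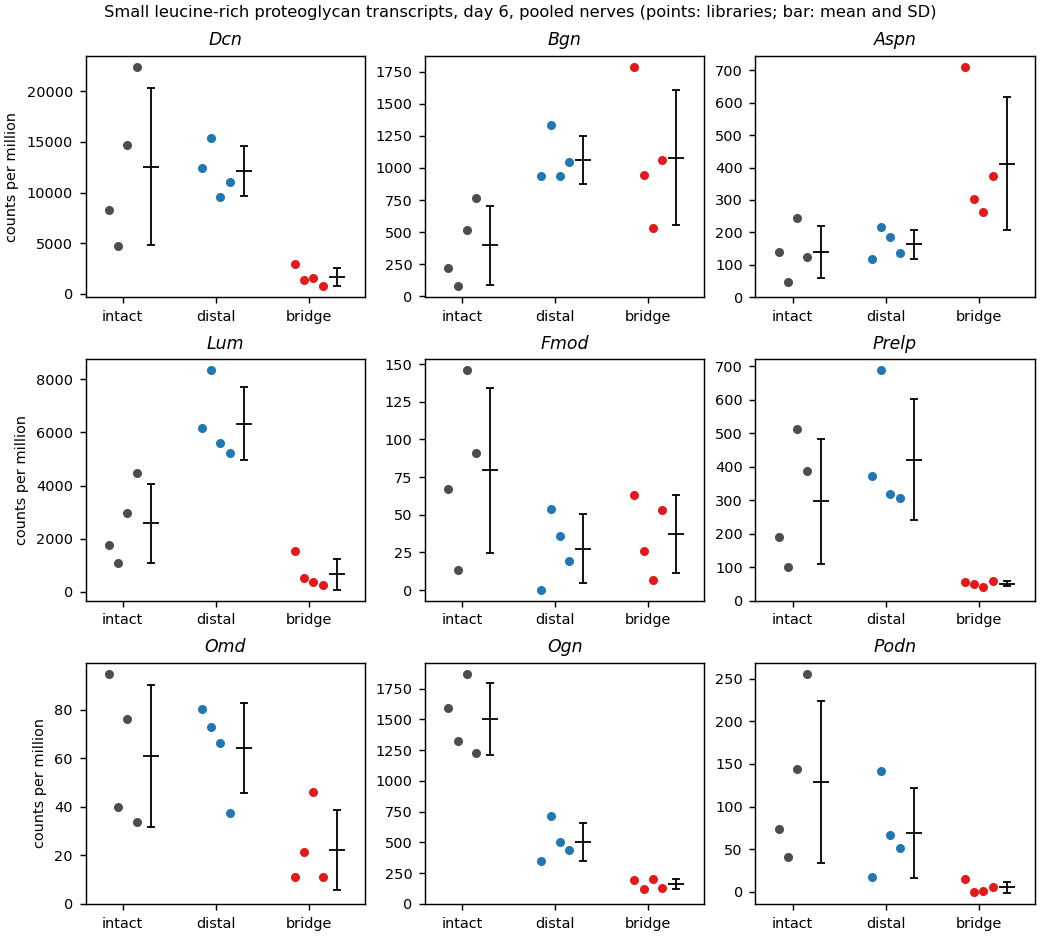
Levels of the 9 members in pooled nerves at day 6, in CPM on a linear axis for each gene, with 1 point per library and a bar for mean and SD (n = 4 per region), each axis reaching down to 0 or just under it where the SD does. All 4 bSC libraries of Dcn, Ogn, Prelp and Podn lie below all iSC libraries, and those of Aspn lie above.

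The bridge differed more. Of the 9 members 6 were called between bSCs and iSCs, 5 lower and 1 higher, where 14.7% of all genes tested were called, 7.46% lower and 7.24% higher. Dcn was at 8288, 4747, 14718 and 22413 CPM in iSCs and at 2955, 1337, 1509 and 799 CPM in bSCs (pools 1, 2, 3 and 5), and fell 7.6-fold (log2 fold change -2.93 ± 0.51, adjusted p = 0.00217, edgeR). The highest bSC library was below the lowest iSC library.

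Ogn fell further in the bridge than in the distal stump. The 4 bSC libraries held 196, 122, 200.5 and 127 CPM, below all dSC libraries, so that its level was 9.32-fold lower than in iSCs (log2 fold change -3.22 ± 0.30, adjusted p = 5.13e-05, edgeR) and 3.11-fold lower than in dSCs (-1.64 ± 0.28, adjusted p = 0.00761, edgeR). It was the only member called in all 3 pooled comparisons in the fit without the pool number.

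Prelp, whose product anchors basement membranes to connective tissue by binding heparan sulfate and collagen, was at 189, 100, 512 and 387 CPM in iSCs, at 371, 688, 319 and 306 CPM in dSCs and at 54.9, 49.2, 41.1 and 57.0 CPM in bSCs. The bSC libraries were close to each other and below all others. Prelp fell 5.87-fold against iSCs (log2 fold change -2.55 ± 0.45, adjusted p = 0.00235, edgeR) and 8.32-fold against dSCs (-3.06 ± 0.46, adjusted p = 0.00428, edgeR).

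Lum held 1527, 504, 382 and 258 CPM in bSCs, the first of which overlapped with the iSC libraries. The difference from dSCs was the largest of any called member on the log2 scale in that comparison, at -3.25 ± 0.58 or 9.48-fold (adjusted p = 0.00925, edgeR), with no overlap. Against iSCs Lum was 3.86-fold lower (-1.95 ± 0.55, adjusted p = 0.0298, edgeR). That call was lost in 3 of its 6 alternatives, with the pool number as a block (adjusted p = 0.158), with a lane covariate and in a fit of only the compared groups, and without any 1 of 6 libraries (iSC pools 1, 4 and 5 and bSC pools 2, 3 and 5), at adjusted p between 0.0502 and 0.089 (range over the alternatives 0.00315 to 0.158). In the second experiment bSCs of day 6 held 865 to 1751 CPM of Lum, within the iSC range of 799 to 2849 CPM. The log2 fold change there was -0.28 (adjusted p = 0.8, edgeR). On days 4, 8 and 10 it was 0.38, 0.89 and -0.93, none called, and the test over these bridge days gave an adjusted p of 0.357 (edgeR).

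Podn, encoding podocan, a collagen-binding protein first described in kidney podocytes, had the largest fold change of the members in the bridge and the lowest level per length of them there. It was at 73.3, 41.4, 144 and 256 CPM in iSCs, at 16.8, 142, 66.0 and 51.9 CPM in dSCs and at 14.7, 0, 1.03 and 5.22 CPM in bSCs, where the 0 allows up to 0.223 CPM (3 counts, before TMM scaling, counting error only). Podn fell 24.2-fold against iSCs (log2 fold change -4.60 ± 1.17, adjusted p = 0.0186, edgeR), a value that rests on few counts in bSCs, and the call was lost with the pool number as a block (adjusted p = 0.108, range over 6 alternatives 0.000189 to 0.108). Against dSCs the libraries did not overlap, but the log2 fold change of -3.70 ± 1.12 missed the threshold (adjusted p = 0.0713, edgeR).

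Aspn moved the other way. Asporin differs from decorin and biglycan in that it has a stretch of aspartate residues and usually no glycosaminoglycan chain. Its transcript was at 141, 47.8, 246 and 123 CPM in iSCs, at 118, 215, 185 and 135 CPM in dSCs and at 711, 302, 263 and 372 CPM in bSCs, and the lowest bSC library was above the highest of both other groups. Aspn rose 2.96-fold against iSCs (log2 fold change 1.57 ± 0.45, adjusted p = 0.0317, edgeR). Without any 1 of 5 libraries (iSC pools 1, 2 and 5 and bSC pools 1 and 5) adjusted p was between 0.0502 and 0.0852, and in a fit of only the compared groups it was 0.0691 (range over 6 alternatives 0.00847 to 0.0691). Against dSCs the log2 fold change of 1.34 ± 0.44 was not called (adjusted p = 0.0933, edgeR).

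Bgn, Omd and Fmod were not called in any pooled comparison by edgeR with all libraries. Bgn was at 1787, 942, 531 and 1065 CPM in bSCs, which spanned the dSC values (log2 fold change bSCs against dSCs 0.03 ± 0.54) and of which 3 exceeded all iSC libraries (1.45 ± 0.55, adjusted p = 0.0953, edgeR). Without iSC pool 5 Bgn passed, at adjusted p = 0.0308. Omd, encoding osteomodulin, a keratan sulfate proteoglycan best known from bone, ranged from 33.6 to 94.8 CPM in iSCs and from 10.9 to 46.0 CPM in bSCs (-1.45 ± 0.51, adjusted p = 0.0742, edgeR), and passed without bSC pool 3 (adjusted p = 0.016) and with DESeq2 (0.0263). Fmod, encoding fibromodulin, the closest relative of lumican in this set, varied from 0.306 to 146 CPM over the 12 libraries without a difference beyond that spread.

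Between bSCs and dSCs 4 of 9 members were called, all lower in bSCs (Dcn, Lum, Prelp and Ogn), where 5.43% of all genes tested were called and 3.11% were called lower. Dcn was 7.33-fold lower (log2 fold change -2.87 ± 0.51, adjusted p = 0.00917, edgeR). DESeq2 called 7 members, adding Podn and Omd lower and Aspn higher, out of 2106 genes against 746 with edgeR. Libraries did not overlap for 5 members lower (Dcn, Lum, Prelp, Ogn and Podn) and for Aspn higher, against 8.62% and 6.77% of all genes, and between bSCs and iSCs for 4 lower and 1 higher, against 14.5% and 10.5%. The median log2 fold change of the members was -1.64 against dSCs and -1.95 against iSCs, beside -0.07 and -0.16 over all genes tested. The comparisons share their libraries in pairs, so agreement between them is not independent.

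**Figure D2:**
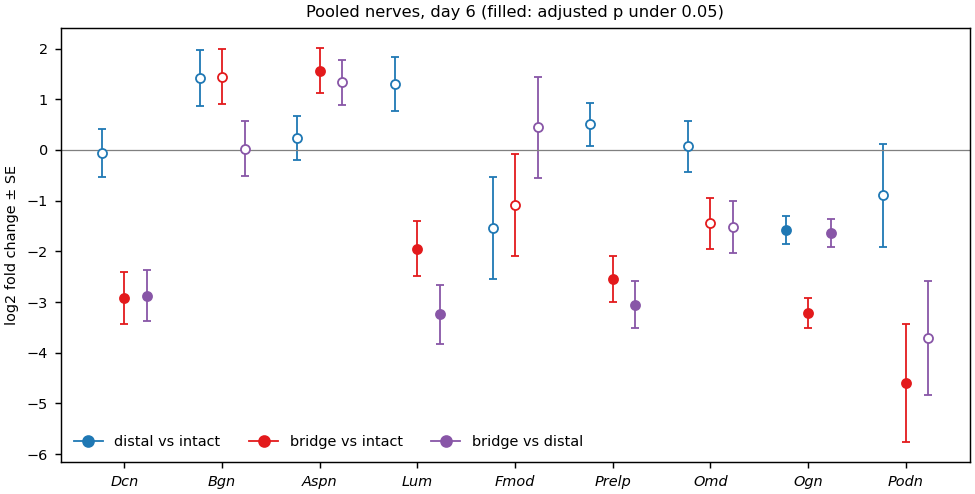
Log2 fold changes (± SE, vertical axis) of the 9 members in the 3 comparisons of pooled nerves, filled where the adjusted p was under 0.05. Dcn, Lum, Prelp and Ogn are lower in bSCs than in dSCs, Aspn is above 0 in both bSC comparisons and filled in that with iSCs, and Bgn and Fmod have no filled point.

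Fibroblast markers had log2 fold changes below 0 in the bridge, 12 of 12 against iSCs and against dSCs, although few were called. The summed level of the 12 fibroblast markers, which do not include the members, was 2979, 1364, 6331 and 6830 CPM in iSCs, 3920.3, 6236, 4215 and 5005 CPM in dSCs and 3037, 1854, 1846 and 1309.9 CPM in bSCs, none of the defining markers being at 0. The 9 members summed to 12444, 7495, 21195 and 29754 CPM in iSCs, 20503, 26895, 17243 and 18339 CPM in dSCs and 7319, 3305, 2981 and 2748 CPM in bSCs. Pi16 and Ccl11 were the 2 of 12 fibroblast markers called, both lower in bSCs against iSCs (log2 fold changes -4.73 ± 1.04 and -3.39 ± 0.62) and against dSCs (-4.47 ± 1.03 and -4.54 ± 0.65), with list medians of -1.51 and -1.58, where 14.7% and 5.43% of all genes were called; Ccl11 is named because it was called, after its values were seen. Pdgfra was at 0.172 to 62.8 CPM in bSCs and 79.8 to 214 CPM in dSCs. The part of fibroblast RNA in the member levels was not tested.

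Other marker lists were measured in the same libraries. The 6 SC markers summed to 734 to 1773 CPM in iSCs, 974 to 2442 CPM in dSCs and 688 to 1461 CPM in bSCs, which overlapped. Of these 4 were called between bSCs and iSCs, where 14.7% of all genes were, 3 lower (Sox10, S100b and Cdh19) and Ngfr higher, and none between bSCs and dSCs by edgeR, where S100b had an unadjusted p of 0.00957 and the median log2 fold change was -0.58. The 10 macrophage markers summed to 128 to 2994 CPM in iSCs, 4534 to 8015 CPM in dSCs and 1172 to 4051 CPM in bSCs, with 3 of 10 called higher in dSCs than iSCs, where 5.32% of all genes were called, and a median log2 fold change of -1.22 in bSCs against dSCs, with none called there by edgeR and 2 at an unadjusted p under 0.05. The 8 perineurial markers summed to 909 to 1214 CPM in iSCs, 230.1 to 845 CPM in dSCs and 256 to 491 CPM in bSCs. Between bSCs and iSCs 4 of 8 were called, where 14.7% of all genes were, with the defining markers Msln and Slc2a1 and also Itgb4 lower and Moxd1 higher, and 7 of 8 had a log2 fold change below 0 (median -2.69). Against dSCs 2 of 8 were called, where 5.43% of all genes were, Msln lower and Moxd1 higher (median -1.53). The 8 endothelial markers summed to 146 to 528 CPM in iSCs, 151 to 378 CPM in dSCs and 99.5 to 897 CPM in bSCs. Of these 7 had a log2 fold change above 0 in bSCs against dSCs (median 1.31), and 1 was called, Kdr, higher. The 8 mural markers summed to 322 to 1532 CPM in iSCs, 231 to 280 CPM in dSCs and 328 to 1059 CPM in bSCs. In bSCs against dSCs 5 of them were above 0 (median 0.65) and none was called by edgeR. In iSC pool 5, which held the most Dcn, macrophage markers summed to 2994 CPM against 128 to 725 CPM in the other iSC pools, and SC markers were at their lowest of the 4. Whether these cells contributed to the member levels was not tested.

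**Figure D3:**
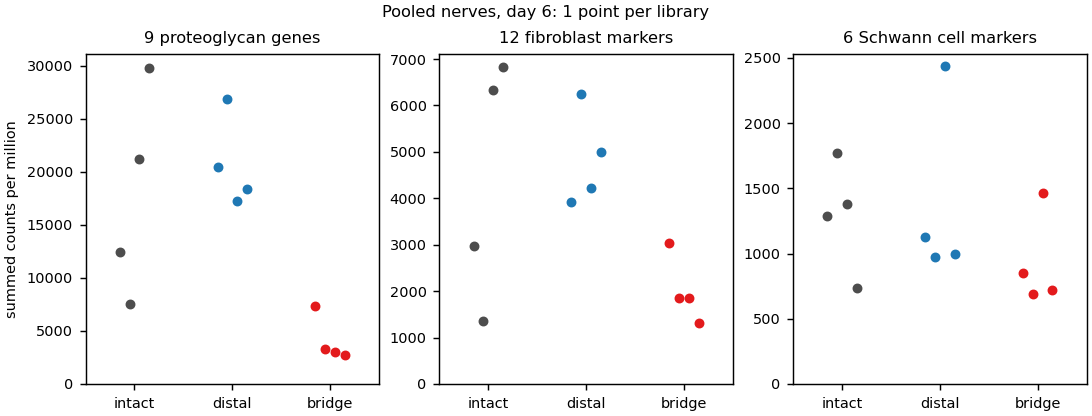
Summed CPM in pooled nerves at day 6 for the 9 members, the 12 fibroblast markers and the 6 SC markers, with 1 point per library and linear axes from 0. In bSCs the members lie between 2748 and 7319 and the fibroblast markers between 1309.9 and 3037. The SC marker sums of the 3 groups overlap, but they join genes called in opposite directions between bSCs and iSCs, Sox10, S100b and Cdh19 lower and Ngfr higher.

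The time course of single nerves followed the same genes from day 1. The study's minimum of 100 counts in 85% of the 35 libraries left 7171 genes and 8 members. Fmod was tested only with edgeR's own filter, over 15519 genes, and was not called by edgeR in any comparison there (unadjusted p = 0.936 over the distal days, 0.244 over the bridge days and 0.19 between bSCs and dSCs), where 0.767%, 1.39% and 0.103% of genes were. It had 0 counts in replicate 1 of day 1 dSCs and of day 8 bSCs and in replicates 0 and 2 of day 10 bSCs, which allow up to 0.151, 0.264, 0.143 and 0.255 CPM before TMM scaling.

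In dSCs 2 of the 8 members differed from iSCs on at least 1 of the 6 days (Lum and Omd, adjusted p = 0.0303 and 0.0342, edgeR's quasi-likelihood F test), where 1.95% of all genes tested were called. Lum was between 799 and 2849 CPM in iSCs, with a median of 1771. It was at 2358, 529 and 1728 CPM in dSCs on day 1, 467, 2079.6 and 1060.4 on day 2, and 2615, 1817 and 2778 on day 4. On day 6 it held 2953, 2750.4 and 4138 CPM, on day 8 5083, 6084 and 9725 CPM and on day 10 1787, 4804 and 9995 CPM. The day 8 libraries were all above every iSC library, although the test of that day alone gave a log2 fold change of 2.02 ± 0.52 with adjusted p = 0.0605 where 0.711% of genes were called, 0.00981 with DESeq2, and 0.462 without replicate 2 of that day (0.0345 to 0.462 over the 35 fits that left out 1 library). Leaving out replicate 2 of day 8 gave an adjusted p of 0.111 for the test over days, and replicate 4 of day 2, replicate 1 of day 8 or replicate 3 of day 10 between 0.0545 and 0.0628. Without the 4 libraries with the fewest genes detected it was 0.079, the highest of its 5 alternatives (lowest 0.000635).

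Omd went down after the cut. It was between 126 and 259 CPM in iSCs, and in dSCs at 81.7, 41.4 and 54.2 CPM on day 1 and 43.1, 36.9 and 22.1 CPM on day 2, below all iSC libraries. On day 4 its level was 17.8, 31.4 and 8.29 CPM, with a log2 fold change of -3.12 ± 0.71 against iSCs (adjusted p = 0.0097, edgeR), a call lost without replicate 2 of that day (0.0939). On days 6, 8 and 10 dSC libraries ranged from 7.76 to 63.6 CPM. Summed perineurial markers were 1101 to 3601 CPM in iSCs and 192 to 1053 CPM in dSCs of all days. Of these markers 2 of 4 tested were called over the distal days, where 1.95% of all genes were. Slc2a1 was at 546 to 1485 CPM in iSCs and 57.0 to 378 CPM in dSCs, while Msln overlapped. The part of perineurial RNA in the Omd level was not tested. The test over days lost its call in 13 of 35 fits that left out a library, among them 4 of the 5 iSC libraries (all but replicate 1), with adjusted p up to 0.0994, and in 3 of 5 alternatives, without a filter on low counts (0.078), with edgeR's own filter (0.0608) and without the 4 libraries with few genes (0.0788, range over the alternatives 0.000345 to 0.0788).

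Dcn was lower in dSCs on day 4 than in iSCs. The 3 libraries of that day held 5699, 5620 and 5562 CPM against 10687 to 21809 CPM in iSCs, with a log2 fold change of -1.63 ± 0.42 (adjusted p = 0.0236, edgeR), on a day when 4.74% of all genes tested were called. The call was lost without any 1 of these 3 libraries (adjusted p between 0.0721 and 0.128). On day 8 Dcn was at 12381, 15140 and 18130 CPM, within the iSC range. The test over the 6 days did not pass (adjusted p = 0.133, edgeR), but did with DESeq2 (0.00734). In libraries with few genes detected the scaled level stood above the raw share, since replicate 0 of day 2 was at 9188 CPM with 0.408% of its gene counts on Dcn and replicate 0 of iSCs at 21809 CPM with 1.21%.

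In bSCs 3 of 8 members differed from iSCs on at least 1 of the 4 days, Dcn (adjusted p = 0.000213), Omd (0.000426) and Ogn (0.0212, edgeR's quasi-likelihood F test for all), where 3.05% of all genes tested were called. Dcn was at 5798, 5345 and 6269 CPM on day 4, 2849, 2569.7 and 2980.5 on day 6, 6901, 4078 and 12063 on day 8, and 2174, 3745 and 2014 on day 10. All bSC libraries but 1 of day 8 lay below every iSC library. The log2 fold change was -1.58 ± 0.42 on day 4, -2.63 ± 0.44 on day 6 and -2.72 ± 0.45 on day 10, all called (adjusted p = 0.0282, 0.00116 and 0.00102, edgeR), and -1.18 on day 8, not called by edgeR (adjusted p = 0.264) but called by DESeq2 (0.0285). The share of all genes called was 4.06%, 3.54%, 0.683% and 2.52% on days 4, 6, 8 and 10. The day 4 call was lost without iSC replicate 1 or any 1 of the day 4 libraries, at adjusted p up to 0.114, and without the 4 libraries with few genes (0.0532, the highest of 5 alternatives whose lowest was 0.00073).

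Omd was called lower in bSCs on each of the 4 days, with log2 fold changes of -2.72 ± 0.69, -3.74 ± 0.73, -2.85 ± 0.70 and -3.19 ± 0.71 on days 4, 6, 8 and 10 (adjusted p = 0.0207, 0.00393, 0.0453 and 0.0135, edgeR). Its 12 bSC libraries lay between 4.96 and 48.2 CPM, all below the iSC libraries. Summed perineurial markers were 187 to 723 CPM in bSCs of all days, against 1101 to 3601 CPM in iSCs. The part of perineurial RNA in these Omd calls was not tested. The call of day 8 was lost without a filter on low counts (0.0805), with edgeR's own filter (0.0622) and in 23 of 35 fits without 1 library, with adjusted p of 0.263 and 0.297 without its replicates 0 and 1 and up to 0.0705 without others, that of day 4 without replicate 0 or 2 of that day (0.0997 and 0.139) and that of day 10 without replicate 3 (0.12).

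Ogn and Podn were called by edgeR on the last day, and Prelp by DESeq2 (adjusted p = 0.00355). Ogn was between 162 and 851 CPM on days 4, 6 and 8 of bSCs and at 30.1, 180.1 and 12.2 CPM on day 10, below the lowest iSC library of 211 CPM. Its log2 fold change on day 10 was -3.33 ± 0.68 (adjusted p = 0.00618, edgeR), and adjusted p was 0.0513 without replicate 0 and 0.0516 without replicate 3 of that day. The test over days was also lost without replicate 0 (0.0857). Podn was at 0.0466, 9.16 and 0.893 CPM on day 10 against 14.03 to 279 CPM in iSCs (-4.98 ± 1.29, adjusted p = 0.0324, edgeR), and without day 10 replicate 0 or 3 or iSC replicate 4 or 5 adjusted p was between 0.0537 and 0.217. On day 10 the summed fibroblast markers of bSCs were 1576, 2858 and 1895 CPM, against 3646 to 8372 CPM in iSCs, and SC markers 816, 462 and 1136 CPM against 152 to 608 CPM. The defining SC marker S100b went the other way, with 0.517 to 7.74 CPM in these bSCs against 34.1 to 67.3 CPM in iSCs. Sox10 was at 79.3 to 109 CPM, within the iSC range of 22.8 to 119 CPM. Without the 4 libraries with few genes, 5 members were called over the bridge days, with Prelp (adjusted p = 0.000994) and Podn (0.0167) added. The part of these libraries and of fibroblast RNA in the results was not tested.

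**Figure D4:**
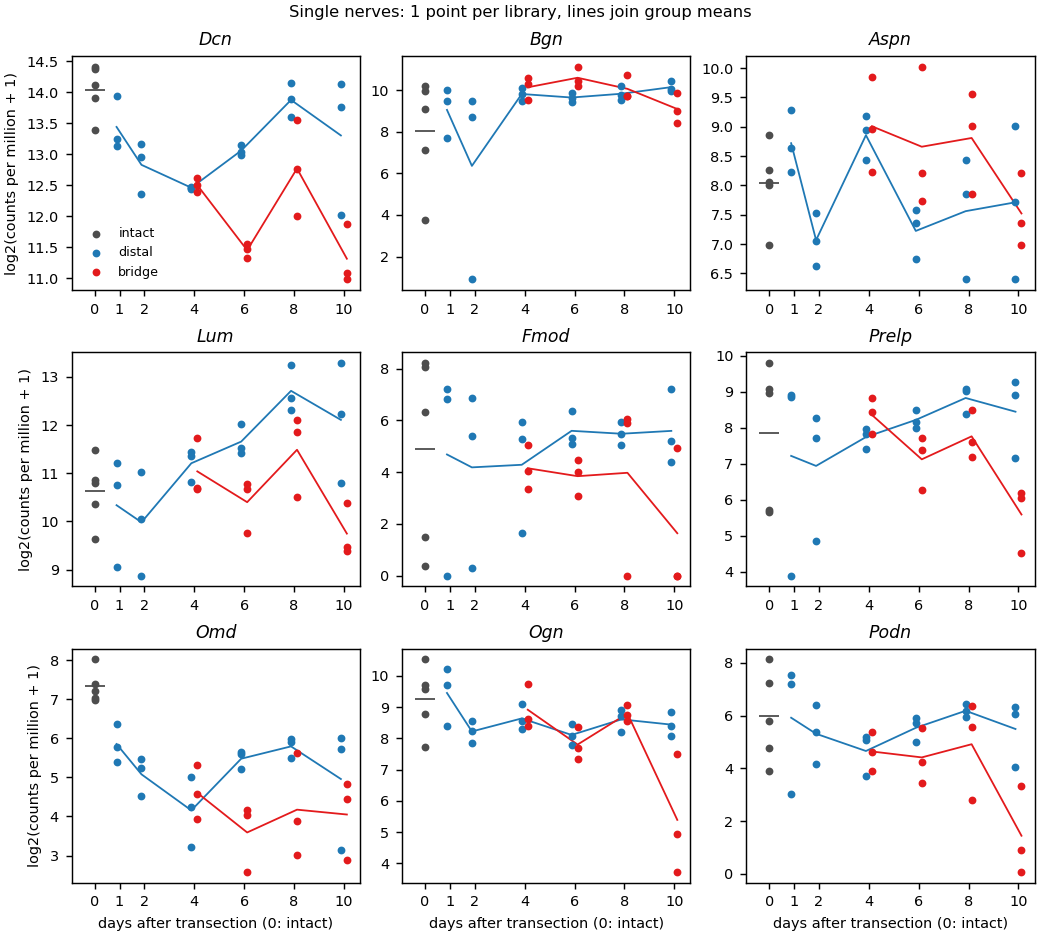
Levels of the 9 members in single nerves, as log2(CPM + 1) against days after transection, with iSCs drawn at 0, 1 point per library and lines joining group means of dSCs and bSCs. Dcn and Lum of bSCs lie under those of dSCs from day 6 on, Omd of both regions is under the iSC level, and the bSC line of Aspn runs above that of dSCs on days 4 to 8.

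Whether bSCs and dSCs differ over days 4 to 10 was tested on the mean of the 4 days. Dcn was lower in bSCs, by 2.27-fold (log2 fold change -1.18 ± 0.22, adjusted p = 0.0183, edgeR), 1 of 8 members called where 8 genes or 0.112% of those tested were. Its call was lost without replicate 0 or 1 of day 8 bSCs or replicate 0 of day 10 bSCs (adjusted p = 0.0563, 0.0553 and 0.0514). Lum had a difference as large (-1.27 ± 0.30) at adjusted p = 0.1, which became 0.00159 with DESeq2, 0.0309 without the 4 libraries with few genes, and 0.0295, 0.0497 and 0.0355 without replicate 0 of day 10 dSCs, replicate 2 of day 8 bSCs or replicate 2 of day 10 bSCs (range over 8 alternatives 0.00159 to 0.191). Of the others, Podn, Prelp, Omd and Ogn had log2 fold changes of -1.42, -1.07, -0.97 and -0.50 and Aspn and Bgn of 0.69 and 0.18, none of them called by edgeR, though Prelp passed without the 4 libraries with few genes (adjusted p = 0.0309).

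The labels name the animal of each nerve, which gave 10 pairs of a bridge and a distal library of the same mouse, 3 each on days 4, 6 and 8 and 1 on day 10. Dcn was lower in the bridge in 8 of 10 pairs, with log2 ratios between -0.07 and 0.17 in the 3 pairs of day 4, between -1.82 and -1.49 on day 6, between -1.89 and -0.59 on day 8 and of -3.16 on day 10. Lum was lower in 9 of 10 pairs and Prelp and Podn in 8, with medians of -0.96, -0.78 and -0.40. Aspn and Bgn were higher in the bridge in 8 of 10 pairs, with medians of 1.01 and 0.40. The pair of day 10 was the lowest of all for Dcn, Lum, Prelp, Ogn and Podn.

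The paired result differed with how the pairs were fitted. The fits with equal weights below also took the region difference as the same on all days. The weight of the day 10 pair and this change of model therefore cannot be told apart. With the animal as a replicate block and the 4 days averaged, 7 members were called, Dcn, Lum (log2 fold change -1.66 ± 0.25), Prelp (-1.63 ± 0.23), Omd (-1.61 ± 0.40), Ogn (-1.13 ± 0.22) and Podn (-2.19 ± 0.47) lower and Aspn (1.12 ± 0.30) higher, with adjusted p up to 0.0475 and 460 of 7171 genes called. With the same block and equal weight for each pair, no member and no gene was called by edgeR: for Dcn the log2 fold change was then -1.14 ± 0.31 (adjusted p = 0.152), for Lum -1.17 ± 0.34 (0.154) and for Aspn 0.99 ± 0.30 (0.156), and 4 members and 1049 genes had an unadjusted p under 0.05. Without the day 10 pair and with equal weights, again no gene was called by edgeR, 5 members and 1016 genes having an unadjusted p under 0.05, and Ogn had a log2 fold change of 0.01 ± 0.20.

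Whether the difference between regions depends on the day was tested next, and not detected. In the test of that interaction 0 of 7171 genes passed with edgeR, 78 had an unadjusted p under 0.05 and DESeq2 called 5. Dcn, Ogn and Lum were the 3 members with an unadjusted p under 0.05 (0.00947, 0.0322 and 0.0484). With the animal block Prelp passed (adjusted p = 0.048, lowest of 6 alternatives that reached 1). Summed fibroblast markers overlapped between regions on days 4, 6 and 8, with 2428 to 9244 CPM in bSCs and 3322 to 5290.4 CPM in dSCs, while on day 10 bSCs had 1576 to 2858 CPM and dSCs 3863 to 5820 CPM. Single markers could differ more than the sum. On day 6 Pi16 was at 71.1 to 148 CPM in bSCs and 361 to 849 CPM in dSCs. Clec3b was then at 5.08 to 25.8 and 25.9 to 80.7 CPM, while Pdgfra and Dpt overlapped. The part of fibroblast RNA in the member differences was not tested.

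**Figure D5:**
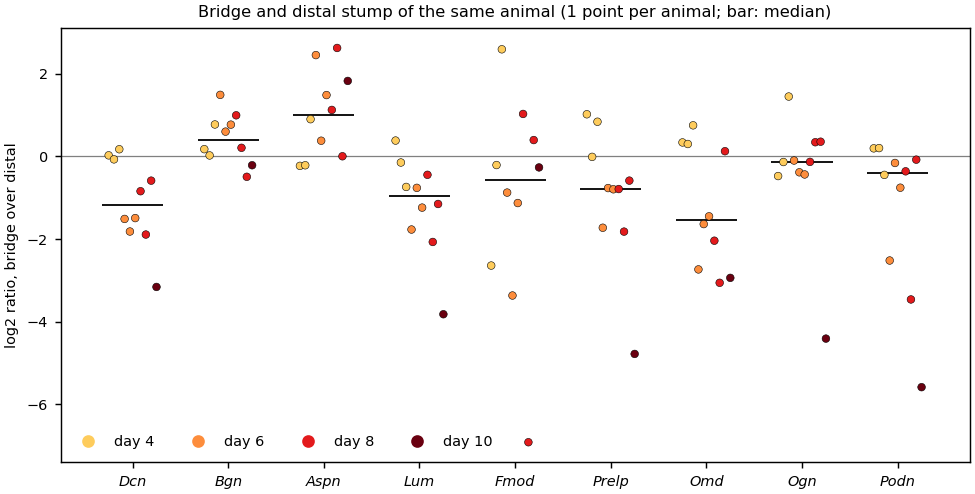
Log2 ratio of bridge over distal level (vertical axis) in the 10 mice that gave both libraries, for each member, coloured by day, with a bar at the median. The 3 pairs of day 4 lie between -0.07 and 0.17 for Dcn, and the 1 pair of day 10 is lowest for Dcn, Lum, Prelp, Ogn and Podn and above 0 for Aspn.

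Members resembled each other to different degrees over the 14 mouse groups. Pearson's r of group means on the log2 CPM scale, which share libraries' depth and scaling, was 0.91 for Lum and Prelp, 0.89 for Dcn and Podn, 0.86 for Ogn and Podn and 0.84 for Prelp and Podn. For the chromosomal neighbours Dcn and Lum r was 0.70, for Prelp and Fmod 0.59, for Omd and Ogn 0.57 and for Aspn and Omd -0.44, the lowest of all 36 pairs. Bgn and Aspn were alike at 0.51.

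Among the 13723 genes compared, those with the pattern most like that of Dcn were 5430416O09Rik, Enpp2 and Vtn (r = 0.96, 0.95 and 0.94). For Lum they were Gpc3, Alpl and Prelp (0.94, 0.92 and 0.91), for Prelp Efemp1, C1s1 and Bbs4 (0.97, 0.94 and 0.93) and for Podn Scara5, Adamtsl3 and Sec61a2 (0.98, 0.96 and 0.95). Bgn was followed by Ephb2, Papss2, which makes the sulfate donor for glycosaminoglycan chains, and Rcn1 (0.95, 0.95 and 0.94), and Aspn by Kdelr1, Fam89a and P4ha2, a collagen prolyl hydroxylase subunit (0.85, 0.83 and 0.82). The genes closest to Ogn were Pcgf1, Tmem53 and Aldh2 (0.94, 0.94 and 0.92), to Omd Lypd2, which is on the perineurial marker list, Igfbp6 and Kcnj13 (0.94, 0.92 and 0.92) and to Fmod Wdr59, Noxo1 and E130311K13Rik (0.88, 0.87 and 0.87). These are descriptions over 14 means and carry no test.

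Of the genes that build the sugar chains, 27 were tested in pooled nerves. Between dSCs and iSCs 4 were called, where 5.32% of all genes were: Chsy1, a chondroitin polymerase, rose (log2 fold change 2.80 ± 0.43), and Chst2, Fut8 and Csgalnact1 fell (-2.50 ± 0.67, -2.48 ± 0.29 and -1.46 ± 0.37). Between bSCs and iSCs 4 were called as well, close to the 14.7% of all genes: Chsy1 rose (2.72 ± 0.43), and Fut8, Csgalnact1 and Csgalnact2, the last of which also starts chondroitin chains, fell (-2.51 ± 0.29, -1.58 ± 0.38 and -1.43 ± 0.39). No gene of the list was called between bSCs and dSCs by edgeR's quasi-likelihood test. The list medians were 0.06, 0.06 and -0.14 in these comparisons, close to those of all genes.

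Collagens, which the members bind, were called in both directions. Of 12 fibrillar and fibril-associated chains 4 were called in dSCs against iSCs, where 5.32% of all genes were, with Col2a1, Col14a1 and Col5a2 higher (log2 fold changes 4.17 ± 1.06, 1.44 ± 0.36 and 1.31 ± 0.27) and Col5a3 lower (-1.46 ± 0.28). In bSCs against iSCs 5 were called, where 14.7% of all genes were, Col12a1, Col5a2 and Col5a1 higher (2.62 ± 0.67, 1.99 ± 0.27 and 1.47 ± 0.39) and Col2a1 and Col16a1 lower (-3.71 ± 1.08 and -0.88 ± 0.27). Against dSCs, where 5.43% of all genes were called, Col12a1 was higher (2.79 ± 0.68) and Col2a1 lower (-7.89 ± 1.27) in bSCs.

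The remaining lists are small, and their calls stand beside 5.32%, 14.7% and 5.43% of all genes called in dSCs against iSCs, bSCs against iSCs and bSCs against dSCs. Among 14 ligands and receptors of the family, Tgfb2, a TGFβ that decorin binds, was higher in bSCs than in iSCs (log2 fold change 2.26 ± 0.48) and dSCs (1.90 ± 0.48). Igf1r was lower in bSCs than in iSCs (-2.02 ± 0.57), and P2rx4 was higher in dSCs than in iSCs (1.36 ± 0.34). In bSCs against dSCs Kdr was higher (2.96 ± 0.78) and Lrp1, an endocytic receptor of decorin, lower (-1.75 ± 0.46). Kdr is also on the endothelial marker list, and the part of endothelial RNA in its level was not tested. Of 8 proteases tested, Mmp14 was higher in dSCs and bSCs than in iSCs (1.59 ± 0.43 and 1.66 ± 0.43), and in bSCs Adamts4 was higher (3.35 ± 0.97) and Adamts5 lower (-1.56 ± 0.46). Of the large chondroitin sulfate proteoglycans, 3 of 6 were tested, and Vcan (versican) was called higher in dSCs (2.22 ± 0.57). Other small leucine-rich proteoglycans were sparse: 4 of 8 passed the filter on low counts (Epyc, Ecm2, Tsku and Podnl1) and none was called by edgeR in any pooled comparison, with unadjusted p between 0.0327 and 0.807 and 1 of 12 values under 0.05.

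In single nerves fewer genes of these lists passed. Over the distal days Col5a1, Col5a2, Mmp2 and Vcan were called (adjusted p = 0.0269, 0.0237, 0.0143 and 0.00528, edgeR's quasi-likelihood F test), and over the bridge days Col5a1, Col5a2, Col12a1, Chsy1 and Vcan (0.0482, 0.0193, 0.0267, 0.00711 and 0.000589). Between bSCs and dSCs over days 4 to 10 none of the tested genes of the 6 lists was called by edgeR. Of the 12 fibroblast markers 1 was called there, as was 1 of 8 members, where 0.112% of all genes tested were. This was Ccl11, lower in bSCs (log2 fold change -2.36 ± 0.44, adjusted p = 0.0183, edgeR). Of the 12 markers 8 had a log2 fold change below 0 and 4 above 0, with a median of -0.39.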

How the data were processed

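SCs were sorted on tdTomato, with gates set on Cre-negative cells, and their mRNA was amplified and sequenced by Smart-seq2. The authors aligned the reads with TopHat2 2.0.11 to mm9 and counted them per gene with HTSeq, and the deposited values are raw read counts per gene, with ERCC spike-in rows that were left out of library sizes. Strand is not kept by this library type, so reads of overlapping genes cannot be told apart. Of 47 mouse libraries, 8 came as 2 lanes that differed little beyond sampling noise (chi-square per degree of freedom up to 1.3) and were summed. Rat cultures were not used here. Part of the SC marker list is not reported here. Samples were grouped by the labels as separate nerves or pools.

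Counts were tested with edgeR 4.0.16 (R 4.3.3): TMM scaling, quasi-likelihood fits and Benjamini-Hochberg adjustment over all genes tested, called at adjusted p under 0.05. CPM are scaled by TMM, and RPKM divide them by the union of exons. Pooled nerves were fitted over 3 groups with edgeR's filter (13751 genes), single nerves over 11 groups with the study's minimum of 100 counts in 85% of libraries (7171 genes). Pairs are log2 ratios with 0.5 CPM added. Each SE is the absolute log2 fold change over the square root of the F value of its quasi-likelihood test, so it includes spread between libraries. Limits of a count of 0 (3 counts) are scaled to the gene counts of the library without TMM, unlike the other CPM, and cover counting error only.

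The text names all members, from each list up to 3 called genes in each direction, the defining markers, and for each member the 3 genes of highest correlation. Members and lists were chosen with earlier results of these data known. Alternatives were DESeq2 1.42.0, its size factors, other filters, fits of the compared groups, a lane covariate, a replicate block and each library left out. The scripts were tested on simulated data. The replicate block used the numbers of the labels, taken to pair nerves of the same mice. For pooled nerves these number pools of 3 mice, and the labels do not say that same-numbered pools share mice. Same-numbered libraries had mean correlations of deviations from the group mean of -0.03 (dSCs and iSCs), -0.07 (bSCs and iSCs), 0.04 (bSCs and dSCs) and 0.16 (single nerves, -0.29 to 0.66). One bSC library of day 10 whose labels give different mouse numbers was left out of the pairs.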

Additional observations from a re-analysis of the deposited data

Results flagged for a closer look

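Prelp stood out in 1 of the 4 dSC libraries of pooled nerves. Pool 2 held 687.9 CPM, the next library 370.7 CPM, and the gap was a large part of the range of that group. It was the only such library in 36 groups of 4 or 5 libraries, where chance gives about 1 in 20. Pool 2 also had the highest Dcn, Lum, Bgn and Aspn of the dSC libraries, and summed fibroblast markers of 6236 CPM against 3920.3 to 5005 CPM in the others. The part of fibroblast RNA in this value was not tested. Without this library Prelp remained called between bSCs and dSCs, as it did without each of the 12 pooled libraries (adjusted p between 0.00192 and 0.0143, edgeR).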

How the results depend on the processing

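No value with a test reversed its sign while called. In fits with a replicate block for the pool, 0 members were called between dSCs and iSCs, 4 between bSCs and iSCs and 4 between bSCs and dSCs, of 287, 968 and 236 genes against 732, 2022 and 746 without it. The block removed the calls of Ogn between dSCs and iSCs and of Lum and Podn between bSCs and iSCs, and changed no other pooled call of a member. DESeq2 called 1, 7 and 7 members of 1536, 3374 and 2106 genes. In single nerves DESeq2 called 3, 4 and 2 members over the distal days, the bridge days and between bSCs and dSCs, of 746, 946 and 602 genes against 140, 219 and 8. Over the distal days 1 member was called without a filter and 1 with edgeR's filter, Omd being lost in both. Between bSCs and dSCs 30 and 16 genes were called with these filters. With the animal as a replicate block 7 members (460 genes) were called between bSCs and dSCs and 1 member (22 genes) in the interaction with day. Alternatives chosen after seeing the data were the same block with each pair at equal weight (0 members), that without day 10 (0 members), and leaving out the 4 libraries with few genes, which gave 0 members over the distal days, 5 over the bridge days (419 genes) and 3 between bSCs and dSCs (46 genes). Why these counts differ was not tested. Leaving out 1 library at a time gave 1 to 1, 4 to 6 and 4 to 5 members in the pooled comparisons, 0 to 2 over the distal days, 2 to 4 over the bridge days, 0 to 2 between bSCs and dSCs and 0 to 0 in the interaction. Without bSC pool 3 Omd, and without bSC pool 1 Podn, passed between bSCs and dSCs (adjusted p = 0.032 and 0.0328, edgeR). Members with few counts, Podn and Fmod in bSCs above all, are the least precise.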
